A study of Mus musculus with 14 samples.

Results

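Haematopoietic stem cells (HSCs) without the adaptor Lnk were compared with wild-type HSCs of the same age, 2 months, on 6 arrays. The genotypes are written as Lnk-/- and WT in the labels, and each was measured on 3 arrays of CD150+CD48-LSK bone marrow cells, sorted in a pair of rounds. LSK stands for lineage-negative, Sca-1-positive and Kit-positive cells. All 20239 of 21225 probe sets that the annotation gives exactly 1 gene symbol were compared, and no gene was chosen by its values. The other 986 probe sets had no single symbol, and none of them passed the test in a fit that included them. The arrays of 20-month mice of both genotypes, 4 each, served to estimate the spread and to set the genotype difference in old mice beside that in young mice. The arrays are biological replicates per the labels, which leave the number of mice behind an array unstated, so the p-values measure the spread between these samples. The only limit of the model that the labels give is the genotype itself. Whether Lnk was missing in other cells of the mice, and how the allele was made, are not given in the sources used here.

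Lnk, encoded by Sh2b3, is an adaptor of the SH2B family that binds cytokine receptors and the kinase JAK2 in blood cells and damps their signal. In HSCs JAK2 passes cytokine signals on to STAT5, RAS-MAPK and PI3K-AKT, which support stem cell maintenance. Mice without Lnk are known for an enlarged pool of HSCs. The comparison asks which RNAs differ in the stem cells before old age.

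The sorted cells carried the RNAs of their gate. Levels are RMA values in log2 units throughout, in which a difference of 1 is a 2-fold change. Kit, the stem cell factor receptor, lay between 10.46 and 10.70 on the 6 arrays and the stem cell regulator Hlf between 10.58 and 10.92. Cd48, absent from the gated cells, lay between 2.87 and 3.40, below 3.69, the 90th percentile of 1098 olfactory receptor genes that served as the level of unexpressed genes. The macrophage marker Adgre1, the T cell marker Cd3d and the B cell marker Cd79a had no array above that level. Many other markers of these cells did not lie that low. Both group means were at or below it for 5 of 23 macrophage, 10 of 20 T and NK and 6 of 16 B and plasma cell markers. The mean levels of these 3 lists lay above it on all 6 arrays. Array medians lay between 5.08 and 5.15, and arrays correlated pairwise at 0.990 to 0.995 across genes. RNA of sex-linked genes differed within and between the groups, and the labels state no sex. Xist, transcribed from the inactive X chromosome, was at 10.54, 10.55 and 3.61 on the Lnk-null arrays 1, 2 and 3 and at 9.89, 3.41 and 4.23 on the wild-type arrays. The mean of the Y-linked genes Eif2s3y, Kdm5d and Uty was 3.06, 3.00 and 7.22 on the Lnk-null arrays and 6.59, 7.06 and 6.99 on the wild-type arrays. Thus Lnk-null arrays 1 and 2 had Xist and no Y-linked signal, Lnk-null array 3 had the reverse, and wild-type array 1 had both. The SD over all values of an array was 2.00 to 2.04 on the young wild-type arrays and 2.04 to 2.10 on all other arrays. Each of the 12 genes that passed is given below also without the arrays that carried Xist where it then lost the call.

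In young HSCs, 9 genes rose without Lnk and 3 fell (limma, adjusted p under 0.05 over 20239 genes). The 9 risen genes were 0.0445% of the genes tested, the 3 fallen genes 0.0148% and the 12 together 0.0593%. Without an adjustment, 1140 genes (5.63%) were higher and 1138 (5.62%) lower at p under 0.05, close to even in both directions. In a fit of genes above the median level alone, 1011 were higher and 231 lower, with a median difference of 0.05. The shares over all genes are thus not a level-matched background for lists of well-expressed genes. The 3 Lnk-null arrays lay all above the wild-type arrays for 1578 genes (7.8%) and all below for 1632 (8.06%). The median difference of all genes was -0.02, and 30 genes differed by 1 log2 unit or more. The 12 genes had no overlap between the arrays of the groups. The count of genes that passed rested on the arrays used. It was 7, 37 and 8 without wild-type array 1, 2 or 3 and 4, 5 and 36 without Lnk-null array 1, 2 or 3. It was 5 without the arrays that carried Xist, which leaves 2 wild-type arrays and 1 Lnk-null array at 2 months and assumes that the lone array varies like the others. It was 13 with Y-linked RNA in the model and 2 with the spread of each array as a covariate. Of the 12 genes, Sh2b3, Hmox1, Aldh1a1 and Plscr2 passed without the arrays that carried Xist, 4 passed with Y-linked RNA in the model, and Sh2b3 and Aldh1a1 passed with the spread of each array as a covariate. With 3 arrays against 3, a two-sided exact permutation test of a single gene cannot go below 0.1, and each of the 12 reached that value.

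**Figure D1:**
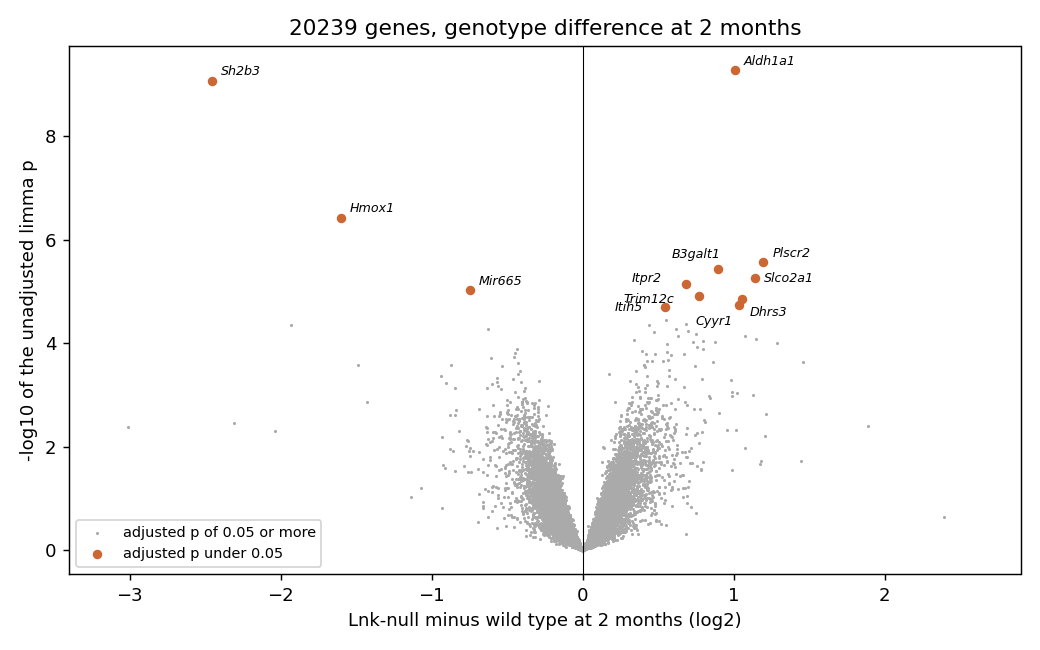
Each point is 1 of 20239 genes, with the difference Lnk-null minus wild type at 2 months on the x axis (log2) and -log10 of the unadjusted limma p on the y axis; orange points have an adjusted p under 0.05. The 12 named genes stand above the cloud, Sh2b3, Hmox1 and Mir665 on the lower side and 9 genes on the higher side.

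Sh2b3 itself had the largest difference of the genes that passed. It was at 4.91, 5.83 and 5.29 on Lnk-null arrays 1 to 3 and at 7.64, 7.77 and 7.99 on the wild-type arrays, so every array matched its labelled genotype. The gene fell by 2.46 ± 0.19 (SE, n = 3 and 3; adjusted p 8.57e-06), a 5.49-fold lower level. The remaining signal stayed above the level of olfactory receptor genes on all 3 Lnk-null arrays, and which part of the gene the probes cover was not analysed here. Among the 20 measured genes nearest to Sh2b3 in the reference order, none passed the test, with 1 higher and 1 lower at an unadjusted p under 0.05.

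The clearest rise was that of Aldh1a1, which encodes a cytosolic aldehyde dehydrogenase that makes retinoic acid from retinal. Aldh1a1 was at 9.12, 9.31 and 9.004 on the Lnk-null arrays and at 8.10, 8.11 and 8.20 on the wild-type arrays. It rose by 1.01 ± 0.08 (SE; adjusted p 8.57e-06), a 2.01-fold difference. The wild-type arrays spread over an SD of 0.06 and the Lnk-null arrays over 0.16, and the gap between the groups was several times wider than either. Together with Sh2b3 it was the only gene that passed in the 15 alternative analyses run.

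A second enzyme of retinoid metabolism also rose. Dhrs3 encodes a dehydrogenase that reduces retinal back to retinol and so acts against retinoic acid formation. Dhrs3 was at 7.36, 6.80 and 6.78 on the Lnk-null arrays against 5.82, 6.08 and 5.87 on the wild-type arrays, with Lnk-null array 1 above the other two. It rose by 1.06 ± 0.17 (adjusted p 0.0288), or 2.08-fold, and passed in 6 of the 15 alternatives. Without the arrays that carried Xist the Dhrs3 difference was 0.81, with an adjusted p of 0.476. The other measured genes of the pathway did not pass. Of 27 measured genes of retinoid metabolism and its receptors, a list assembled after the values had been seen, 2 passed, and 1 more was higher and 1 lower at an unadjusted p under 0.05. These were Rdh11, a retinal reductase, with a difference of 0.41 (adjusted p 0.172), and the alcohol dehydrogenase Adh7 with -0.25 (adjusted p 0.397). The receptors Rara, Rarb, Rarg and Rxra had differences of 0.10, 0.01, 0.21 and -0.00067, none passing, and Cyp26b1, which degrades retinoic acid, had -0.13 ± 0.32. The median of the list was -0.10, beside -0.02 for all genes.

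Hmox1, which encodes the inducible haem oxygenase that opens the haem ring, had the largest fall after Sh2b3 among the genes that passed. It was at 5.90, 5.28 and 5.23 on the Lnk-null arrays and at 6.83, 6.98 and 7.39 on the wild-type arrays. All Lnk-null arrays lay below all wild-type arrays. Hmox1 fell by 1.60 ± 0.19 (adjusted p 0.00253), a 3.03-fold lower level, and passed in 14 of the 15 alternatives. In the fit with the spread of each array as a covariate its difference was -1.745 with an adjusted p of 0.231. Its regulators and the next enzyme of the pathway did not pass. The repressor Bach1 differed by 0.07, the activator Nfe2l2 by 0.05 and biliverdin reductase Blvra by 0.07. Among 22 measured genes of haem synthesis, haem breakdown and iron handling, also assembled after the values had been seen, 1 passed. At an unadjusted p under 0.05, 3 of the 22 were higher and 3 lower. Fech, which inserts iron into haem, was higher by 0.39 (adjusted p 0.259) and the haem transporter Slc48a1 by 0.30 (adjusted p 0.284).

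Hmox1 is also abundant in macrophages, and it was the only gene of the macrophage markers to pass. Of 23 measured macrophage markers 2 were higher and 5 lower at an unadjusted p under 0.05, with a median of -0.04. The mean level of the list was 4.844 to 4.915 on the wild-type arrays and 4.696 to 4.838 on the Lnk-null arrays, without overlap. All Lnk-null arrays lay below all wild-type arrays for 6 of the 23 and above them for 1. The same held for 8.06% and 7.8% of all genes. The complement gene C1qb was at 4.45, 3.89 and 4.13 without Lnk and at 4.56, 4.69 and 4.72 in wild type, a difference of -0.50 (adjusted p 0.234). Of the 23 markers, 5 had both group means at or below the level of olfactory receptor genes. The markers Adgre1, Csf1r and Mrc1 lay below that level on all 6 arrays. The cathepsins Ctsb and Ctss, which many cells carry, differed the other way, by 0.46 and 0.55 (adjusted p 0.0987 and 0.268). The part of macrophage RNA in the Hmox1 difference was not tested.

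**Figure D2:**
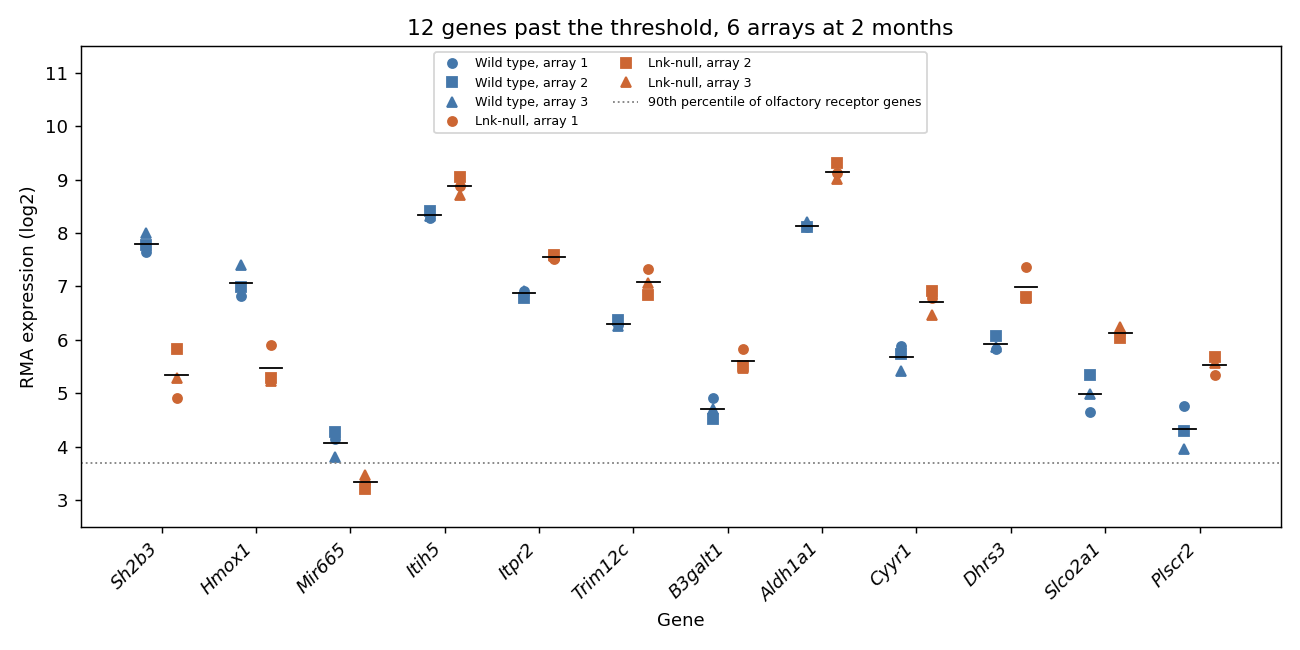
RMA expression (log2, y axis) of the 12 genes that passed the test on the 3 wild-type (blue) and 3 Lnk-null (orange) arrays at 2 months; marker shapes stand for array numbers, bars for group means, and the dotted line for the 90th percentile of olfactory receptor genes at 3.69. No gene has overlapping groups, and only the Lnk-null arrays of Mir665 lie under the line.

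Plscr2 and Slco2a1 also rose. Plscr2, of the phospholipid scramblase family, was at 5.35, 5.68 and 5.56 without Lnk and at 4.76, 4.29 and 3.96 in wild type. It had the largest rise among the genes that passed, 1.20 ± 0.17 (adjusted p 0.0137), or 2.29-fold, and passed in 11 of the 15 alternatives, with an adjusted p of 0.388 when the spread of each array was a covariate. Slco2a1, which encodes a prostaglandin transporter, was at 6.13, 6.04 and 6.24 without Lnk and at 4.66, 5.34 and 4.99 in wild type. It rose by 1.14 ± 0.17 (adjusted p 0.0186), or 2.21-fold, and passed in 8 of the 15 alternatives. The Slco2a1 difference was 1.08 (adjusted p 0.267) without the arrays that carried Xist and 0.93 (adjusted p 0.549) with array spread as a covariate. The Slco2a1 and Plscr2 spread lay mainly in the wild-type arrays, with SDs of 0.34 and 0.40 against 0.10 and 0.17 in the Lnk-null arrays.

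Calcium release and glycosylation were each represented by a single gene. Itpr2, an inositol trisphosphate receptor that releases calcium from the endoplasmic reticulum, was at 7.51, 7.58 and 7.58 without Lnk and at 6.92, 6.78 and 6.92 in wild type. It rose by 0.68 ± 0.10 (adjusted p 0.0209), or 1.61-fold, with an SD of 0.04 among Lnk-null arrays. Itpr2 passed in 6 of the 15 alternatives, and its adjusted p was 0.442 without the arrays that carried Xist, 0.275 with array spread and 0.155 with Y-linked RNA in the model. B3galt1, a galactosyltransferase, was at 5.84, 5.51 and 5.48 without Lnk and at 4.90, 4.52 and 4.71 in wild type. It rose by 0.90 ± 0.13 (adjusted p 0.0146), or 1.86-fold, and passed in 9 of the 15, with an adjusted p of 0.321 without the arrays that carried Xist and 0.275 with array spread. All Lnk-null arrays of both genes lay above all wild-type arrays. Among the 10 measured genes nearest to Itpr2 in the reference order, none passed. At an unadjusted p under 0.05, 3 of them were higher and 1 lower, beside 5.63% and 5.62% of all genes, not matched for level. Named after their values were seen, these were Med21 with 0.46, Stk38l with 0.45, Ints13 with 0.28 and Fgfr1op2 with -0.53. In old mice they differed by -0.11, 0.12, 0.09 and -0.51, in the same order. Whether the Itpr2 difference was linked to its neighbouring genes was not tested.

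The other 3 risen genes were Cyyr1, Trim12c and Itih5. Cyyr1, named for its cysteine- and tyrosine-rich protein, was at 6.78, 6.91 and 6.46 without Lnk and at 5.89, 5.74 and 5.41 in wild type, and rose by 1.03 ± 0.17 (adjusted p 0.034). Trim12c, of the tripartite motif family, was at 7.33, 6.84 and 7.06 without Lnk and at 6.28, 6.38 and 6.26 in wild type, and rose by 0.77 ± 0.12 (adjusted p 0.0271). Itih5, a heavy chain of the inter-alpha-trypsin inhibitors, which bind hyaluronan in the matrix, was at 8.88, 9.04 and 8.72 without Lnk. In wild type Itih5 was at 8.29, 8.40 and 8.32, and it rose by 0.54 ± 0.09 (adjusted p 0.0342), the smallest difference among the 12. Cyyr1 and Trim12c each passed in 6 of the 15 alternatives and Itih5 in 5. The adjusted p was 0.403 for Cyyr1 and 0.365 for Trim12c without the arrays that carried Xist, and with array spread as a covariate 0.644 and 0.541. The Itih5 difference was 0.36 (adjusted p 0.69) without the arrays that carried Xist and 0.41 (adjusted p 0.687) with array spread. Trim12c belongs to a cluster of near-identical copies, so its signal may include theirs.

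The third gene that fell was the microRNA gene Mir665, which lies in the imprinted Dlk1-Meg3 cluster. Imprinted clusters are transcribed from only the maternal or the paternal copy, and here the maternal copy gives Meg3 and a long series of microRNAs. Both mature arms of the hairpin are shown because a microRNA recognises targets through its seed, bases 2 to 8, printed in capitals (RefSeq, GRCm38.p6, plus strand; the 5p arm at chr12:109586331-109586356 and the 3p arm at chr12:109586368-109586387). No other mature microRNA of the reference table shared either seed.
mmu-miR-665-5p: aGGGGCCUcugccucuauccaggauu
mmu-miR-665-3p: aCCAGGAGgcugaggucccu

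Mir665 was at 3.32, 3.20 and 3.48 without Lnk and at 4.14, 4.28 and 3.81 in wild type, and fell by 0.74 ± 0.12 (adjusted p 0.0239). Its Lnk-null mean of 3.33 was below the level of olfactory receptor genes, so no fold is given. The array measures RNA that overlaps the hairpin, and the mature arms were not measured apart. Without the arrays that carried Xist the Mir665 difference was -0.57 with an adjusted p of 0.619. Meg3, the long RNA of the cluster, stood just short of the threshold, and it is named after its values were seen. Meg3 was at 5.56, 5.25 and 5.97 without Lnk and at 7.38, 7.84 and 7.35 in wild type. Its difference was -1.93 ± 0.35 with an adjusted p of 0.0557, and its arrays did not overlap. Meg3 passed in 5 alternatives, with an adjusted p of 0.00639 when only the 6 young arrays were fitted, and had 0.579 without the arrays that carried Xist. Among 40 measured genes around Mir665 none passed. At an unadjusted p under 0.05, 7 of them were lower and 2 higher, and their median was -0.09. Of all genes 5.62% were lower and 5.63% higher, shares not matched to the low level of many of these neighbours. Among the lower ones, AF357355 and Mir376c had both group means below the level of olfactory receptor genes. Whether the cluster fell as a whole was not tested. The lower ones included Mir341 with -0.40 (adjusted p 0.321) and Mir673 with -0.30 (adjusted p 0.413). The paternally expressed Dlk1 was at 5.26, 5.56 and 5.87 without Lnk and at 5.89, 5.88 and 6.06 in wild type, a difference of -0.38 ± 0.34.

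In the pathway in which Lnk acts, Sh2b3 alone passed among 30 measured SH2B adaptors, cytokine receptors and JAK kinases. Of the 30, 2 were higher and 3 lower at an unadjusted p under 0.05. The median of this list was -0.04, and it was 0.01 without the arrays that carried Xist. Jak2, the kinase that Lnk restrains, was at 8.01, 8.06 and 8.06 without Lnk and at 7.51, 7.85 and 7.77 in wild type. The Jak2 difference was 0.34 ± 0.10 (adjusted p 0.259), with no overlap of the arrays. Flt3, the receptor that marks progenitors with lymphoid potential, was at 6.42, 6.04 and 6.39 without Lnk and at 6.80, 6.94 and 6.74 in wild type. The Flt3 difference was -0.54 ± 0.15 (adjusted p 0.239). The granulocyte colony-stimulating factor receptor Csf3r differed by -0.64 ± 0.19 (adjusted p 0.259), also without overlap. The paralogues Sh2b1 and Sh2b2 differed by -0.04 each, and Kit by 0.05 ± 0.07.

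STAT factors and the genes that STAT5 is known to induce showed no member past the threshold. Of 34 measured, 25 had a positive difference, and 2 were higher and none lower at an unadjusted p under 0.05, with a median of 0.11. Socs6, a feedback inhibitor of the SOCS family, had the smallest p. Socs6 was at 6.02, 6.04 and 6.16 without Lnk and at 5.47, 5.65 and 5.41 in wild type, a difference of 0.56 ± 0.12 (adjusted p 0.0975). The classical STAT5 targets Cish and Socs2 differed by 0.19 ± 0.29 and 0.51 ± 0.44 (adjusted p 0.847 and 0.70). The arrays of Socs2 did not overlap at 2 months, at 8.50, 8.56 and 8.82 against 8.20, 7.99 and 8.18, while its SE was set by a wide spread among other arrays of the fit. Stat5a and Stat5b differed by 0.11 ± 0.11 and 0.04 ± 0.11. The 95% interval of the Stat5b difference reached from -0.19 to 0.26. Among 37 genes of RAS-MAPK and PI3K-AKT signalling none passed, and the smallest p belonged to the mTOR activator Rheb with 0.24 (adjusted p 0.395).

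Stem cell identity genes leaned to the higher side without a member that passed. Of 35 measured, 31 had a positive difference, 4 were higher and none lower at an unadjusted p under 0.05, and the median was 0.14. Of all genes 5.63% were higher and 5.62% lower. In the fit of genes above the median level alone, 1011 were higher and 231 lower, with a median of 0.05. A lean to the higher side was thus not particular to these genes. The mean level of the list was 8.333, 8.329 and 8.422 on the Lnk-null arrays and 8.168, 8.330 and 8.215 on the wild-type arrays. Lnk-null array 2 thus lay just below wild-type array 2. Slamf1, which encodes the sorting marker CD150, was at 8.17, 8.15 and 8.17 without Lnk and at 7.69, 7.89 and 7.53 in wild type. The Slamf1 difference was 0.46 ± 0.14 (adjusted p 0.259). Since CD150 was used in the sort, its level among sorted cells also depends on the gate, and the labels do not give where the gate was set. The transcription factor Hoxb5 and the adhesion molecule Esam differed by 0.42 and 0.37 (adjusted p 0.309 and 0.284). Without the arrays that carried Xist the median of these stem cell genes was 0.15.

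**Figure D3:**
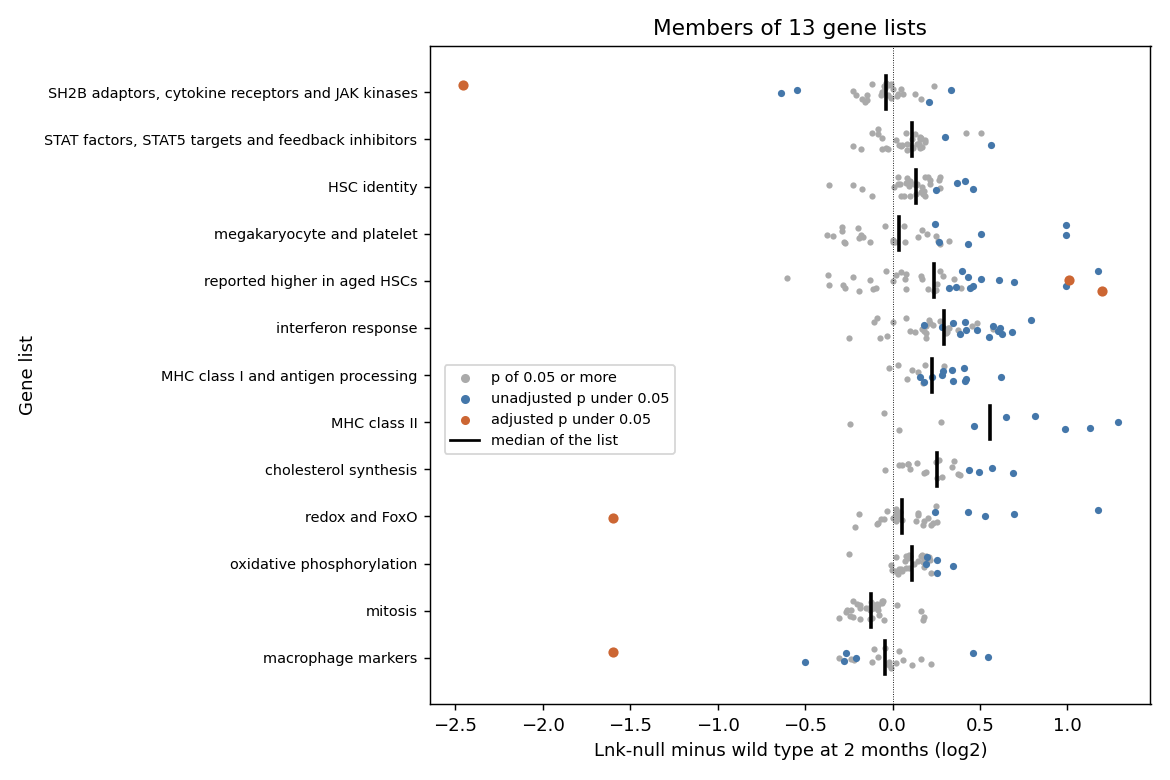
Difference Lnk-null minus wild type at 2 months (log2, x axis) of each measured member of 13 gene lists (rows), with bars at the list medians; grey, blue and orange points stand for an unadjusted p of 0.05 or more, an unadjusted p under 0.05 and an adjusted p under 0.05. The interferon, MHC and cholesterol lists lie to the right of 0, with medians of 0.22 to 0.56, and only Sh2b3, Hmox1, Aldh1a1 and Plscr2 are orange.

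No lineage gene passed. Of 30 megakaryocyte and platelet genes, which share many RNAs with a subset of HSCs, 6 were higher and none lower at an unadjusted p under 0.05, and the median was 0.04. Selp, the adhesion molecule P-selectin, was at 7.55, 7.57 and 6.79 without Lnk and at 7.04, 6.02 and 5.87 in wild type, so that Lnk-null array 3 lay below wild-type array 1. Its difference was 0.99 ± 0.24 (adjusted p 0.187), and without wild-type array 1 it was 1.36 with an adjusted p of 0.00952. It was 0.50 (adjusted p 0.667) with Y-linked RNA in the model and 0.48 (adjusted p 0.819) without Lnk-null arrays 1 and 2, an alternative chosen after seeing the data. Vwf, the von Willebrand factor, was at 7.52, 7.99 and 7.62 without Lnk and at 7.35, 7.26 and 6.995 in wild type, a difference of 0.51 ± 0.14 (adjusted p 0.231). Of 28 lymphoid priming genes 2 were higher and 2 lower at an unadjusted p under 0.05, with a median of -0.06. Of 26 myeloid genes none was higher and 3 were lower, with a median of -0.04. Of 22 erythroid genes 3 were higher and none lower, with a median of -0.02.

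Genes reported to be higher in aged HSCs, a list recalled from studies of HSC ageing, held 2 of the 9 risen genes, Aldh1a1 and Plscr2. Of 41 measured, 13 were higher and none lower at an unadjusted p under 0.05, against 5.63% of all genes that were higher, and the median was 0.24. That share of all genes is not matched to the level of the list. The mean level of the list was 6.25, 6.25 and 6.07 on the Lnk-null arrays and 6.09, 5.91 and 5.89 on the wild-type arrays, so Lnk-null array 3 fell below wild-type array 1. Without the arrays that carried Xist, 8 were higher and the median was 0.11. The metallothionein Mt2 was at 5.78, 6.43 and 4.08 without Lnk and at 4.81, 4.71 and 3.25 in wild type, a difference of 1.18 ± 0.46 (adjusted p 0.364) with overlapping arrays. Of 28 genes reported lower in aged HSCs 1 was higher and 3 lower, with a median of -0.01.

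The 12 genes had the following levels in old wild-type HSCs, a comparison that shares the young wild-type arrays and is therefore given only as values. Aldh1a1 averaged 8.14 in young wild type, 9.15 in young Lnk-null and 10.02 in old wild-type cells. Sh2b3 averaged 7.80, 5.34 and 7.59 in the same order. Plscr2 averaged 4.34, 5.53 and 7.83. Slco2a1 averaged 4.996, 6.14 and 6.79, Dhrs3 5.92, 6.98 and 7.39 and Cyyr1 5.68, 6.72 and 6.91. Hmox1 averaged 7.07, 5.47 and 5.16. Trim12c averaged 6.31, 7.08 and 7.15, and B3galt1 4.71, 5.61 and 5.89. Itih5 averaged 8.34, 8.88 and 8.70 and Mir665 averaged 4.08, 3.33 and 3.54. Itpr2 averaged 6.87, 7.56 and 6.68.

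The genotype difference was then compared between the ages, which share no arrays. In old HSCs 4 genes passed (0.0198% of those tested): Sh2b3, Itpr2, P2ry10 and Pcdh7. Sh2b3 and Itpr2 passed at both ages, that is 16.7% of the 12 genes at 2 months and 50.0% of the 4 at 20 months. Sh2b3 differed by -2.40 ± 0.17 at 20 months and Itpr2 by 0.88 ± 0.09 (adjusted p 4.49e-04). Dhrs3 differed by 0.76 ± 0.15 in old HSCs with an adjusted p of 0.165. P2ry10, a purinergic receptor family member, differed by 0.47 at 2 months (adjusted p 0.258) and 0.76 at 20 months, and the protocadherin Pcdh7 by -0.40 (adjusted p 0.418) and -1.05.

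The test of the difference between the ages called 1 gene, Aldh1a1 (0.00494% of those tested), with 1452 genes at an unadjusted p under 0.05. Its genotype difference was 1.01 at 2 months and 0.00 ± 0.07 at 20 months, where the 8 arrays lay between 9.95 and 10.09. The difference of the differences was 1.00 ± 0.10 (adjusted p 6.08e-04). It was 0.84 with an adjusted p of 0.284 without the arrays that carried Xist, and 0.85 with 0.119 when the spread of each array was a covariate. For the other 11 genes this test had adjusted p between 0.28 and 0.979. Slco2a1 differed by 1.14 at 2 months and -0.14 at 20 months, and Hmox1 by -1.60 and -0.34. Mir665, Itih5 and Trim12c differed by 0.00, 0.00 and 0.02 at 20 months. The old Lnk-null mean of Meg3 was 7.65 and the old wild-type mean 7.40.

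**Figure D4:**
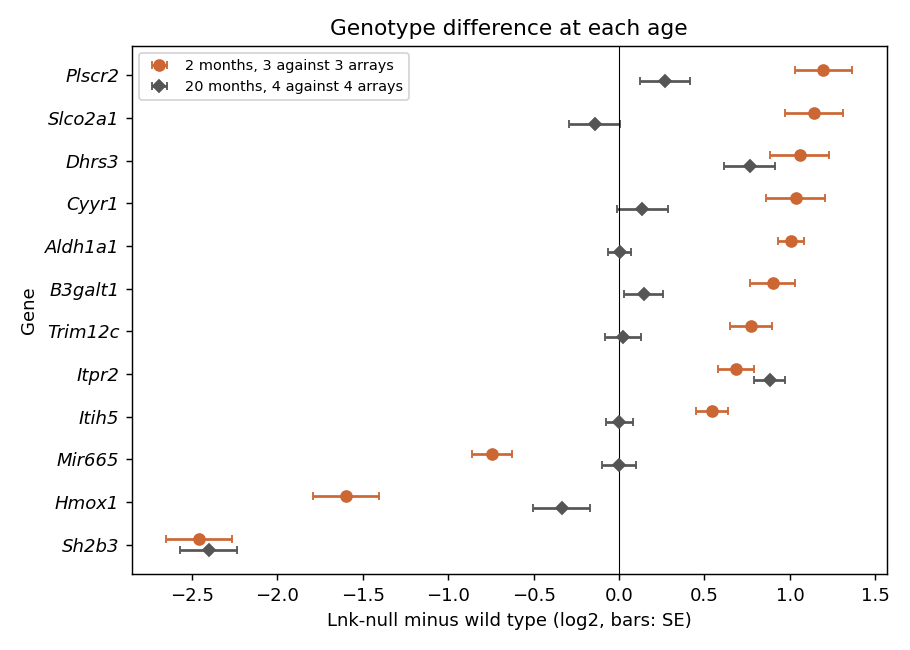
Difference Lnk-null minus wild type (log2, x axis) of the 12 genes at 2 months (orange circles, 3 against 3 arrays) and 20 months (grey diamonds, 4 against 4 arrays), with bars of 1 SE. Sh2b3, Itpr2 and Dhrs3 lie on the same side at both ages with similar sizes, while Aldh1a1 lies at 1.01 and 0.00.

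Interferon response genes had higher values on 2 of the 3 young Lnk-null arrays. Of 40 measured, none passed, 14 were higher and none lower at an unadjusted p under 0.05, against 5.63% and 5.62% of all genes, and 35 had a positive difference. The median was 0.29. The shares over all genes are not matched to the level of this list. The mean level of the list was 7.59, 7.41 and 7.13 on Lnk-null arrays 1, 2 and 3 and 7.14, 7.06 and 7.06 on the wild-type arrays, so that Lnk-null array 3 lay within the wild-type range. Lnk-null arrays 1 and 2 were those with Xist signal. Without the arrays that carried Xist, 2 members were higher and 2 lower and the median was 0.06, and with Y-linked RNA in the model it was 0.07. In old mice the median genotype difference of the list was -0.12.

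Iigp1, Igtp and Irgm2 encode interferon-inducible GTPases, which act against intracellular pathogens. Iigp1 was at 8.11, 7.91 and 7.69 without Lnk and at 7.09, 6.96 and 7.28 in wild type, a difference of 0.79 ± 0.25 (adjusted p 0.268). Igtp differed by 0.63 ± 0.22 and Irgm2 by 0.57 ± 0.16 (adjusted p 0.317 and 0.245). Irgm2 was at 9.38, 9.07 and 8.70 without Lnk and at 8.40, 8.39 and 8.64 in wild type, and Lnk-null array 3 stood close to the highest wild-type array. Irf7, the factor that amplifies the response, was at 7.32, 6.53 and 6.15 without Lnk and at 6.07, 6.16 and 5.73 in wild type, a difference of 0.68 ± 0.24 (adjusted p 0.317) with overlap. Ly6e, an interferon-inducible surface protein abundant in HSCs, differed least among the 14 but had the smallest p. It was at 11.75, 11.74 and 11.80 without Lnk and at 11.63, 11.58 and 11.54 in wild type, a difference of 0.18 ± 0.04 (adjusted p 0.133), and Lnk-null array 3 was the highest.

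The promoters of 3 of these genes are shown because they carry the letters that interferon-activated factors are known to bind. The search used GAAANNGAA, the core of the interferon-stimulated response element, on both strands of the 250 bases before and 50 after each gene start (RefSeq, GRCm38.p6). It was found in 16 of 30 interferon-list promoters in the reference table (53.3%), in 5 of 10 promoters of the 14 higher members and in 7.95% of 15651 promoters of measured genes. The match is in capitals, and each sequence runs 5′ to 3′ on the strand of its gene: Igtp at chr11:58199306-58199605 (plus strand), Irgm2 at chr11:58214727-58215026 (plus strand) and Oas3 at chr5:120777610-120777909 (minus strand). The Igtp and Irgm2 matches start 34 and 64 bases before the gene start, and Oas3, which encodes an oligoadenylate synthetase, holds 2 overlapping matches at 75 and 69.
Igtp: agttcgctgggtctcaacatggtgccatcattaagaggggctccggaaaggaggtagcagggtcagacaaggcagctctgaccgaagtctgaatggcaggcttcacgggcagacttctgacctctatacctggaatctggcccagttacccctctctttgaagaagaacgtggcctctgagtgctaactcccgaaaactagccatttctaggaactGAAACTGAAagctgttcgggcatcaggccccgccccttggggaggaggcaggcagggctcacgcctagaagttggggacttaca
Irgm2: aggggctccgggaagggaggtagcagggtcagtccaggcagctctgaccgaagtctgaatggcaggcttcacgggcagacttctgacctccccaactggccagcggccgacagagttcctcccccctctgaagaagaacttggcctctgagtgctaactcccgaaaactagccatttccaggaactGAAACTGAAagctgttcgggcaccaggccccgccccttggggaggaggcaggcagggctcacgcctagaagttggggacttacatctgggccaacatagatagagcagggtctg
Oas3: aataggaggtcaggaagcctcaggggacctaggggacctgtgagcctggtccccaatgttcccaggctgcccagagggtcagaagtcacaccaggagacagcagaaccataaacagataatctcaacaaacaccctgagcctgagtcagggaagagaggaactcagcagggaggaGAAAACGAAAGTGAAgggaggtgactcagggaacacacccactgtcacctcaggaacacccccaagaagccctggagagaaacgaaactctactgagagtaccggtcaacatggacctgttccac

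The STAT dimer site TTCNNNGAA, searched in the same way, was in 10 of the 30 interferon-list promoters (33.3%), in 3 of 24 promoters of STAT5 targets and inhibitors (12.5%) and in 7.92% of all. It was in none of the 9 promoters available for the 12 genes that passed. GAAANNGAA was in 1 of these 9, that of Trim12c, 28 bases before the gene start. These are counts of letters in the windows and not of bound sites.

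**Figure D5:**
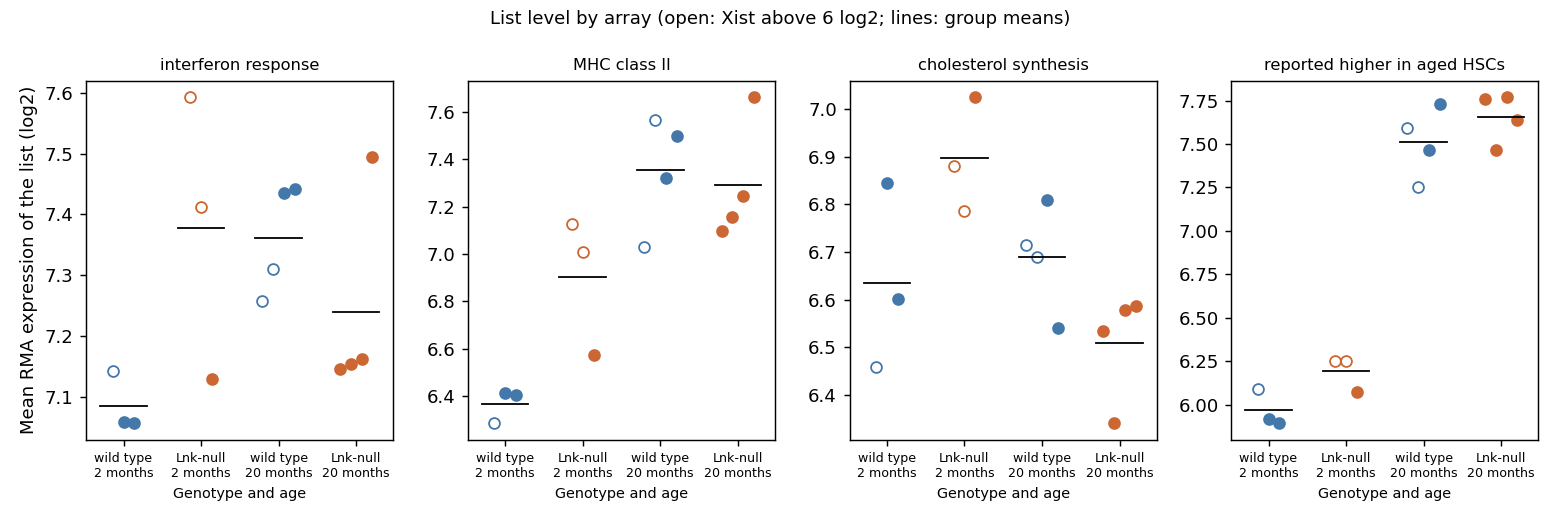
Mean RMA expression (log2, y axes with separate ranges) of 4 gene lists on each of the 14 arrays, by genotype and age (x axes); open circles are arrays with Xist above 6 log2 units and lines are group means. On the interferon panel the 2 open Lnk-null circles at 2 months lie at 7.59 and 7.41 and the filled one at 7.13, beside wild-type arrays at 7.06 to 7.14.

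MHC class II genes, which present peptides to CD4 T cells, had higher mean levels on all 3 Lnk-null arrays. Of 10 measured, none passed and 6 were higher and none lower at an unadjusted p under 0.05, with a median of 0.56. The mean level of the list was 7.13, 7.01 and 6.57 on Lnk-null arrays 1 to 3 and 6.29 to 6.41 on the wild-type arrays. H2-Aa was at 8.75, 8.72 and 8.05 without Lnk and at 7.11, 7.67 and 6.88 in wild type, a difference of 1.29 ± 0.25 (adjusted p 0.0687). It was 0.78 (adjusted p 0.736) without the arrays that carried Xist and 0.49 (adjusted p 0.865) with array spread as a covariate. The invariant chain Cd74 was at 8.13, 7.77 and 7.18 without Lnk and at 6.51, 6.29 and 6.90 in wild type, a difference of 1.13 ± 0.28 (adjusted p 0.205). H2-Eb1 and H2-Ab1 differed by 0.99 and 0.81 (adjusted p 0.211 and 0.255). In all 4 the third Lnk-null array was the lowest of its group, yet above the wild-type arrays. Without the arrays that carried Xist, 1 member was higher and the median was 0.31, and with the array spread as a covariate it was 0.11. B cells and macrophages also carry these RNAs. Of 16 B and plasma cell markers none was higher or lower at an unadjusted p under 0.05, and their mean level was 4.29 to 4.39 on the Lnk-null and 4.40 to 4.42 on the wild-type arrays.

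The H2-Aa promoter is shown for the box that class II promoters are known to share, an inverted CCAAT. On either strand it was in 6 of 7 class II promoters in the table (85.7%), against 38.5% of all. In H2-Aa (chr17:34287774-34288073, minus strand, RefSeq, GRCm38.p6) it starts 48 bases before the gene start, in capitals.
H2-Aa: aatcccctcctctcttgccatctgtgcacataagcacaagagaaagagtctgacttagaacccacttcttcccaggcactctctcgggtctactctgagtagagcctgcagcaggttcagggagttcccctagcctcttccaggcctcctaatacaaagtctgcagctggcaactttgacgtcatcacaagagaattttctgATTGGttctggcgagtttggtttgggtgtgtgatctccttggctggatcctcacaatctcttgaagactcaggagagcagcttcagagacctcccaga

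Class I genes, which present peptides to CD8 T cells, were compared with a list assembled after the values had been seen. Of 19 measured, none passed, 11 were higher and none lower at an unadjusted p under 0.05, with a median of 0.22. The mean level of this list was 8.93, 8.87 and 8.76 on the Lnk-null and 8.59 to 8.63 on the wild-type arrays, without overlap. H2-T23 was at 8.46, 8.34 and 8.27 without Lnk and at 7.79, 7.56 and 7.86 in wild type, a difference of 0.62 ± 0.11 (adjusted p 0.0598). H2-D1 was at 10.04, 10.06 and 10.08 without Lnk and at 9.69, 9.70 and 9.77 in wild type, a difference of 0.34 ± 0.07 (adjusted p 0.0687). For H2-D1 the third Lnk-null array was the highest, unlike for the class II genes. The immunoproteasome subunit Psmb9 and the peptide transporter Tap1, both also on the interferon list, differed by 0.42 and 0.35 (adjusted p 0.231 and 0.391). Class I genes are near-identical copies of each other, so their probes may share signal.

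Genes of cholesterol synthesis leaned the same way, with a different array pattern. Of 21 measured, 20 had a positive difference, 4 were higher and none lower at an unadjusted p under 0.05, none passed, and the median was 0.25. The mean level of the list was 6.88, 6.79 and 7.02 on the Lnk-null arrays and 6.46, 6.84 and 6.60 on the wild-type arrays, with Lnk-null array 2 below wild-type array 2. Cyp51, a sterol demethylase, was at 7.39, 7.26 and 7.51 without Lnk and at 6.62, 7.19 and 6.88 in wild type, a difference of 0.49 ± 0.16 (adjusted p 0.284). Insig1, the sterol-sensing retention protein, differed by 0.69 ± 0.25 (adjusted p 0.338). The median was 0.30 without the arrays that carried Xist, with 1 member higher. In old mice the median genotype difference was -0.18, and Cyp51 differed there by -0.59. The difference of the differences for Cyp51 had an adjusted p of 0.33.

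Genes of energy metabolism had smaller differences. Of 34 genes of oxidative phosphorylation, 31 had a positive difference and 5 were higher and none lower at an unadjusted p under 0.05, with a median of 0.11 and 0.02 when the array spread was a covariate. Their mean level was 8.66, 8.77 and 8.68 on the Lnk-null arrays and 8.64, 8.69 and 8.43 on the wild-type arrays. Wild-type array 2 thus lay above Lnk-null arrays 1 and 3, and wild-type array 3 was the lowest. The complex III subunit Uqcrfs1 had the smallest p, with a difference of 0.34 (adjusted p 0.271). Of 32 genes of glycolysis and hypoxia 5 were higher and 2 lower, with a median of 0.14, led by the triosephosphate isomerase Tpi1 with 0.38 ± 0.10 (adjusted p 0.214). Of 31 redox and FoxO genes Hmox1 alone passed, 5 were higher and 1 lower, and the median was 0.05. Among the 5 was Sod2, the mitochondrial superoxide dismutase, at 7.69, 7.58 and 7.66 without Lnk and at 7.17, 7.33 and 7.15 in wild type. Its difference was 0.43 ± 0.09 (adjusted p 0.0985).

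Proliferation genes gave no calls. Of 33 mitosis genes, 29 had a negative difference, none had an unadjusted p under 0.05, and the median was -0.12. Their mean level was 7.13, 7.502 and 6.82 on the Lnk-null arrays and 7.28, 7.18 and 7.33 on the wild-type arrays, so the Lnk-null arrays lay on both sides of the wild-type arrays. The mitosis gene with the smallest p was Ect2, a regulator of cytokinesis. Of 36 genes of DNA replication and S phase 1 was higher and 1 lower, with a median of -0.11, and E2f2 differed by -0.37 (adjusted p 0.259). The CDK inhibitor Cdkn1c, known for its role in HSC quiescence, differed by 0.26 ± 0.20, with overlap. Of 29 p53 targets and CDK inhibitors 1 was higher, Ccng1 with 0.19 (adjusted p 0.42).

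The remaining lists had no member that passed, and their counts are at an unadjusted p under 0.05. Over all genes 5.63% were higher and 5.62% lower, shares that are not matched to the level of each list. Among genes above the median level 1011 were higher and 231 lower. Among 31 genes of NF-kappaB and inflammation 3 were higher and 2 lower, with a median of 0.05. Among 36 of TGF-beta and BMP signalling 2 were higher and 2 lower, and the matrix protein Tgfbi differed by -0.84 (adjusted p 0.232), by -0.17 (adjusted p 0.948) without the arrays that carried Xist and by -0.40 (adjusted p 0.92) with array spread as a covariate. Among 34 of Wnt and Notch signalling 1 was higher and 3 lower, and the Notch ligand Dll4 differed by -0.44 (adjusted p 0.231). Among 29 of heat shock and protein folding none was higher and 2 lower. The chaperone Hsph1 was at 7.95, 7.88 and 7.30 without Lnk and at 8.52, 8.50 and 8.64 in wild type, a difference of -0.84 ± 0.20 (adjusted p 0.171), which was -1.27 (adjusted p 0.0495) with Y-linked RNA in the model and -1.27 (adjusted p 0.264) without the arrays that carried Xist. Among 33 immediate-early genes 1 was higher, Rgs1 with 0.44 (adjusted p 0.271). Among 36 DNA repair genes 1 was higher, Ogg1 with 0.24, and 1 lower. Among 32 genes of DNA methylation and Polycomb 2 were higher, Pcgf6 with 0.36 among them, and none lower. Among 26 genes of ribosomal proteins and ribosome biogenesis 2 were higher, including Rpl8 with 0.16, and none lower. Among 37 adhesion and niche genes 5 were higher and 4 lower, with a median of -0.04. Higher were Selp, Esam and Cdc42 and the integrins Itga6 with 0.35 ± 0.10 (adjusted p 0.259) and Itgb1 with 0.22 ± 0.10 (adjusted p 0.413). Lower were the integrins Itga9 with -0.63 ± 0.18 (adjusted p 0.244) and Itga2 with -0.58 ± 0.23 (adjusted p 0.366), and Ccr2 and Epha7.

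Apart from Hmox1, no marker of another cell type passed. Of 20 T and NK cell markers 1 was higher and 2 lower at an unadjusted p under 0.05, and Thy1 differed by -0.60 ± 0.14 (adjusted p 0.159), or by -0.30 (adjusted p 0.813) without the arrays that carried Xist. Of 15 granulocyte markers none was higher or lower, and their mean level was 3.84 to 4.21 on the Lnk-null and 4.05 to 4.20 on the wild-type arrays, with Retnlg having the smallest p. Of 24 endothelial and stromal markers none was higher and 4 were lower, led by Flt1 with -0.30 (adjusted p 0.23). Of 14 mast cell and basophil markers none was higher and 3 were lower, led by Prss34 with -0.42 (adjusted p 0.249). Of the B cell markers Ms4a1 had the smallest p. In sorted populations, fewer cells of a type and less RNA per cell cannot be told apart.

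Several further genes just short of the threshold had large differences on all arrays, and these are named after their values were seen. Tex9 was at 8.95, 9.09 and 9.16 without Lnk and at 7.64, 7.73 and 7.45 in wild type, a difference of 1.46 ± 0.31 (adjusted p 0.0987), and it differed by 1.05 in old mice. Cysltr2, a leukotriene receptor, was at 6.75, 6.86 and 6.64 without Lnk and at 6.10, 5.87 and 6.19 in wild type, a difference of 0.70 ± 0.13 (adjusted p 0.0619). Fads2, a fatty acid desaturase, differed by 0.47 ± 0.09 (adjusted p 0.0623), with the Lnk-null arrays at 9.496, 9.502 and 9.512. S100a6, a calcium-binding protein, was at 9.24, 9.26 and 9.64 without Lnk and at 8.73, 8.65 and 8.50 in wild type, a difference of 0.75 ± 0.14 (adjusted p 0.0649). The arrays of these 4 genes did not overlap. Other large differences rested on part of the arrays. Myl10 was at 9.39 and 9.72 on Lnk-null arrays 1 and 2 and at 7.03 on array 3, against 7.36, 6.68 and 6.44 in wild type (adjusted p 0.259). Creb5 was at 7.23 and 8.21 on Lnk-null arrays 1 and 2 and at 5.15 on array 3, against 5.63, 5.48 and 5.14 in wild type (adjusted p 0.355).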

How the data were processed

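The deposited values were the authors' log2 expression values, 1 per probe set and array, from GeneChip Mouse Gene 1.0ST arrays. They were made with RMA in affy, per the submitters' processing notes; versions and genome build are not given in the sources used here. RNA was amplified with the NuGEN Pico method before labelling, per the labels' protocols, which can distort differences between transcripts. RMA quantile-normalises arrays, so a shift of all RNAs cannot be seen, and low values are compressed. Depth does not apply, and the number of arrays limits the precision.

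Group means were fitted to the 14 arrays with limma 3.58.1 (lmFit, eBayes with a trend) in R 4.3.3, which was tested on simulated data. P-values are two-sided and adjusted by Benjamini-Hochberg over 20239 genes, and a gene passed at an adjusted p under 0.05. SE is the moderated standard error. A fold is given only where both means exceed the 90th percentile of olfactory receptor genes. The members, the 35 gene lists and the tests were chosen with earlier results of these data known. The 3 lists said to be assembled later followed the values of this comparison. Named genes were Sh2b3, the largest differences among genes that passed, list members that passed or had the smallest p, and 13 pathway genes; any other is said to be named after its values were seen or is given as an example of its list. Of the genes on the lists, 76 were not analysed here. Predicted genes, RIKEN clones and small RNAs were counted and not named, except Mir665, which the threshold leaves among 12 genes, and its neighbours. Lists are described by counts and medians without a test. Alternatives were the 6 young arrays alone, no trend, a replicate block, array weights, a further quantile normalisation, genes above the median level, covariates for Y-linked level and array spread, and leaving out arrays with Xist above 6 or each young array in turn.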

Additional observations from a re-analysis of the deposited data

Results flagged for a closer look

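The genotype difference of Aldh1a1 differed between the ages, by the test of the difference itself. It was 1.01 ± 0.08 at 2 months and 0.00 ± 0.07 at 20 months, so the young difference exceeded the old one by 1.00 (adjusted p 6.08e-04, limma). That test did not pass with the spread of each array as a covariate. The difference between the ages was smaller without the arrays that carried Xist. That setting leaves 1 Lnk-null array at 2 months. It also leaves out old wild-type arrays 1 and 2, where Xist was at 9.70 and 8.47. All 3 young Lnk-null arrays of Aldh1a1 lay above all 3 young wild-type arrays, as for 7.8% of all genes. Among 24 groups of 4 old arrays examined, 1 for each of the 12 genes and each genotype, no array stood apart by Dixon's criterion, which chance alone meets in about 1 group in 20.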

How the results depend on the processing

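The count of 12 genes was 5 with only the 6 young arrays, 25 with array weights, 6 after a further quantile normalisation, 36 among genes above the median level, 5 without the arrays that carried Xist and 2 with array spread as a covariate. Of the 12 genes, Aldh1a1, Hmox1 and Sh2b3 passed with only the 6 young arrays, and 9 did not. With each young array left out in turn the count of genes that passed was 4 to 37. Leaving out both young Lnk-null arrays with high Xist, an alternative chosen after seeing the data, gave 5. The interaction count of 1 was 3 with Y-linked RNA in the model, 0 without the arrays that carried Xist and 0 with array spread (with limma, 1452 genes had an unadjusted p under 0.05 in the full fit), and 1 to 6 with 1 young array left out. A replicate block gave 18 genes, 10 of them among the 12. Deviations of same-numbered young arrays correlated at -0.01, 0.03 and 0.05 over all genes. Whether same-numbered arrays shared a batch that touched some genes was not tested. All 12 genes kept their direction in every alternative run. Sh2b3 ranged from -2.70 to -2.24 and passed in all. Kit turned to -0.0316 after quantile normalisation and ranged from -0.00068 to 0.0966 with 1 young array left out. Stat5b turned to -0.0197 after quantile normalisation, -0.00619 without the Xist arrays and -0.00185 with array spread, and ranged from -0.00843 to 0.129 with 1 young array left out. The cause of these changes was not tested. Signal over background limits Mir665, which the filter on level removed.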
